A study of Mus musculus with 9 samples.

Results

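The genes described here encode transcription factors and coregulators of the heart muscle program and of its energy metabolism, namely Gata4, Gata6, Nkx2-5, Mef2a, Mef2c, Hand2, Tbx5, Srf, Esrra and the coactivator Ppargc1a. They were taken as a list of 10 genes, and every probe set of the deposited table whose only gene symbol in the platform annotation is one of them was read. That gave 15 of 12488 probe sets, for 8 of the 10 genes, among 8251 genes with a probe set of their own in the table. Tbx5 and Srf had no probe set under a single symbol and were not analysed here. Of the 15 probe sets, 12 passed the filter on dim signals and were tested. Gata4, Nkx2-5, Hand2 and Ppargc1a were read by 1 probe set each, and Gata6 and Mef2a by several, of which 1 each was tested. All 4 probe sets of Mef2c and both of Esrra were tested.

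RNA of both ventricles from female mice aged 3 months was hybridised to 9 arrays, 3 for each of 3 groups. IGF1R-caPI3K mice overexpressed the receptor of insulin-like growth factor 1 (IGF1R) from a transgene and expressed in addition a constitutively active p110 subunit of the lipid kinase PI3K, which acts downstream of that receptor. IGF1R-dnPI3K mice carried the receptor transgene together with a dominant negative p110. IGF1R mice carried the receptor transgene alone, so every group overexpressed the receptor and none of the values below is relative to a heart without a transgene. The promoters driving these transgenes were not given in the sources used here. Sample titles end in a number that differs between all 9 arrays; beyond that nothing states that the arrays are separate animals, and the p-values measure the spread between these samples.

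Gata4 and Gata6 are zinc finger factors that bind the GATA sequence and take part in heart development and in the growth response of the adult heart. Nkx2-5 is a homeobox factor, Tbx5 a T-box factor and Hand2 a basic helix-loop-helix factor of the developing heart, and they act together with GATA factors on promoters of cardiomyocyte genes. Mef2a, Mef2c and Srf belong to the MADS-box factors and control sarcomere and cytoskeletal genes. Esrra (the orphan nuclear receptor ERR alpha) and its coactivator Ppargc1a (PGC-1 alpha) control genes of mitochondrial respiration and fatty acid oxidation. Several of these factors, among them Gata6, Mef2c and Hand2, are also expressed outside cardiomyocytes, and in RNA of whole ventricles fewer cells of a type and less RNA per cell cannot be told apart.

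The promoters of 3 members are shown, at the starts of Esrra, of Mef2a and of Mef2c (1 of its 3 listed starts). The brighter probe set of Esrra held its call in IGF1R-dnPI3K against IGF1R mice in 11 of 17 settings. Mef2a is a MEF2 gene whose groups overlapped. The probe sets of Mef2c gave different pictures, and so did those of Esrra and of Gata6. Each runs from 250 bases before to 50 bases after the start, on the strand of the gene, from the RefSeq table of build GRCm38.p6. The coordinates are chr19:6921759-6922058 on the minus strand for Esrra, chr7:67372809-67373108 on the minus strand for Mef2a and chr13:83573357-83573656 on the plus strand for Mef2c. Capitals mark matches to motifs of the factor families searched.
Esrra: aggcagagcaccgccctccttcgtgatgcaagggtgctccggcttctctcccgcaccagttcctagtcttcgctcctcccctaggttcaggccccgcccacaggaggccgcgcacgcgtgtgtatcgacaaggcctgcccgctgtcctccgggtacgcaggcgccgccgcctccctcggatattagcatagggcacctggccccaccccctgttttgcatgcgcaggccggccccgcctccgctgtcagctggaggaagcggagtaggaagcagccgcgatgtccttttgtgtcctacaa
Mef2a: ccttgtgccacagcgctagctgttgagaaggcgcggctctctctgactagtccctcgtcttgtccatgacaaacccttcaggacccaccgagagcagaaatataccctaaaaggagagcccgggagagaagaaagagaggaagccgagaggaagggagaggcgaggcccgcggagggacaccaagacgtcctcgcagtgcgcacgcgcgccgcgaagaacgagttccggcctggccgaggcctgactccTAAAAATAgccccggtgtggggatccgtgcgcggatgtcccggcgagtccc
Mef2c: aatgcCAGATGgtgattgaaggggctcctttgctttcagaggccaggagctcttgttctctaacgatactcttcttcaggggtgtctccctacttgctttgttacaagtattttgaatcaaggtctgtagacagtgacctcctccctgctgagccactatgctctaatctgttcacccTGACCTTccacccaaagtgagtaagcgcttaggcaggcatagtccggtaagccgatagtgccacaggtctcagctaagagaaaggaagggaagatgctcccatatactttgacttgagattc

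The search covered 7 motifs on both strands: AGATAA for GATA factors, TAAAAATA as one form of the MEF2 core, TNAAGTG for NKX factors, AGGTGT for T-box factors, CATCTG for HAND factors, AAGGTCA for ERR factors, and the SRF CArG box. The Mef2a promoter holds the MEF2 core at bases 250 to 257, across the start, and 2.72% of 32851 promoters of the same length hold it. The Mef2c promoter holds the ERR motif on its other strand at bases 179 to 185, which 4.72% of promoters hold, and the HAND motif at bases 6 to 11, which 17.2% hold. No motif matched in the window shown for Esrra. Member entries on chr18 were left out of the reading. Of the 10 genes 7 had a promoter read, with 9 promoters in all. Among the entries not printed, Srf holds 2 CArG boxes (1.63% of promoters hold at least 1) and Hand2 holds a GATA motif (11.2%) and a HAND motif, while the promoters of Nkx2-5 and Ppargc1a hold none of the 7. Of the other listed starts of Mef2c, that at chr13:83523406-83523705 holds a T-box motif (13.7%) and that at chr13:83503784-83504083 holds none of the 7. The ERR match thus lies at 1 of the 3 starts searched for Mef2c, while the shares are per promoter. Gata4, Gata6 and Tbx5 were not among the entries read. A match is a description of letters and was not tested for binding.

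Some technical measures followed the groups. For Gapdh, a control read from the RNA of the sample, signal near the 3' end divided by signal near the 5' end was 0.843 to 0.873 on IGF1R-caPI3K arrays, 0.844 to 0.943 on IGF1R-dnPI3K arrays and 0.747 to 0.818 on IGF1R arrays. For cre, a control transcript added during the assay, the same ratio was 1.744 to 1.89 on IGF1R-caPI3K arrays, 1.787 to 1.83 on IGF1R-dnPI3K arrays and 1.049 to 1.262 on IGF1R arrays. The median signal of an array was 174.6 to 185.75 in the IGF1R-caPI3K group, 160.6 to 185.15 in the IGF1R-dnPI3K group and 190.05 to 196.7 in the IGF1R group. These 3 measures separate the 6 arrays with a PI3K transgene from the 3 IGF1R arrays. The probe sets Esrra 103964_at, Gata6 104698_at and Mef2c 97357_at make the same split, and the part of these measures in it was not tested. For Actb, also read from the RNA of the sample, the 3' to 5' ratio did not make this split. It was 1.009 to 1.042 on IGF1R-caPI3K arrays, 1.089 to 1.147 on IGF1R-dnPI3K arrays and 1.042 to 1.24 on IGF1R arrays. IGF1R-dnPI3K replicate 3 was the array least like the rest, since its Pearson correlations with them averaged 0.927, and those of each other array averaged 0.947 to 0.956. The first digits of the title numbers form 3 series. Series 10 holds 1 array of each group, series 14 holds IGF1R-caPI3K replicates 2 and 3 and IGF1R replicates 1 and 2, and series 31 holds IGF1R-dnPI3K replicates 2 and 3 only. Genes of the Y chromosome, which female mice lack, gave signals of up to 63.9, a measure of background.

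Esrra rose in IGF1R-dnPI3K ventricles on its brighter probe set, and lay at a similar height in IGF1R-caPI3K ventricles. On 103964_at the signal was 2550.1, 2286.3 and 2355.6 in IGF1R-caPI3K mice, 2232.8, 2386.2 and 2827.6 in IGF1R-dnPI3K mice, and 1948.5, 1626.5 and 1644.4 in IGF1R mice. Each array with a PI3K transgene lay above each IGF1R array, and the arrays of the IGF1R-caPI3K and IGF1R-dnPI3K groups overlapped. The group means were 2397 ± 137, 2482 ± 309 and 1740 ± 181 (SD, n = 3 each) in IGF1R-caPI3K, IGF1R-dnPI3K and IGF1R mice. Against IGF1R mice the log2 difference was 0.51 ± 0.12 in IGF1R-dnPI3K mice (SE, limma adjusted p = 0.0263), or 1.42 times with a 95% interval of 1.18 to 1.72. In IGF1R-caPI3K mice it was 0.47 ± 0.12, or 1.38 times (1.14 to 1.67), which did not pass (limma adjusted p = 0.103). It did pass there with only the arrays of these groups in the fit (adjusted p = 0.0237) and without IGF1R-dnPI3K replicate 3 (0.0256). Both comparisons share the IGF1R arrays.

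Between IGF1R-caPI3K and IGF1R-dnPI3K mice this probe set of Esrra differed by -0.04 ± 0.12 (SE, limma adjusted p = 0.893), with an interval for the ratio of 0.804 to 1.17. Its other probe set, 102145_f_at, gave 529 ± 28.2, 555 ± 52.8 and 554 ± 18.8 (SD, n = 3 each) in IGF1R-caPI3K, IGF1R-dnPI3K and IGF1R mice. There the ratio to IGF1R mice was 0.954 (0.791 to 1.15) in IGF1R-caPI3K mice and 0.998 (0.828 to 1.20) in IGF1R-dnPI3K mice, so the upper limits lie below the ratios of the brighter probe set. The suffix of that name marks a probe set that may hold probes shared with similar sequences. In series 10 alone the brighter probe set was higher than on the IGF1R array by 0.63 on the IGF1R-caPI3K array and by 0.44 on the IGF1R-dnPI3K array (log2, 1 array each). In series 14 it was higher by 0.38 in IGF1R-caPI3K mice (2 arrays each). The Gapdh and cre ratios and the array medians separated the same arrays as this probe set did. With the number series as a block the IGF1R-dnPI3K difference was 0.36 ± 0.19 (adjusted p = 0.488). Its call was also lost without IGF1R replicate 2 or replicate 3 (adjusted p = 0.0814 and 0.0943) and in 3 other settings, and it held in 11 of 17.

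Ppargc1a, whose protein binds ERR alpha and other nuclear receptors, had a low signal and passed in no comparison. It was 94.0, 117.3 and 86.5 in IGF1R-caPI3K mice, 151.7, 147.2 and 146.7 in IGF1R-dnPI3K mice, and 126.6, 158.1 and 91.9 in IGF1R mice. The IGF1R-dnPI3K arrays lay close together and above all IGF1R-caPI3K arrays, while the IGF1R arrays, at 91.9 to 158.1, overlapped with both. Active against dominant negative PI3K gave a log2 difference of -0.59 ± 0.27 (SE, limma adjusted p = 0.323), a ratio of 0.663 with an interval of 0.440 to 0.998. Against IGF1R mice the ratio was 0.803 (0.534 to 1.21) in IGF1R-caPI3K mice and 1.21 (0.805 to 1.82) in IGF1R-dnPI3K mice.

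**Figure D1:**
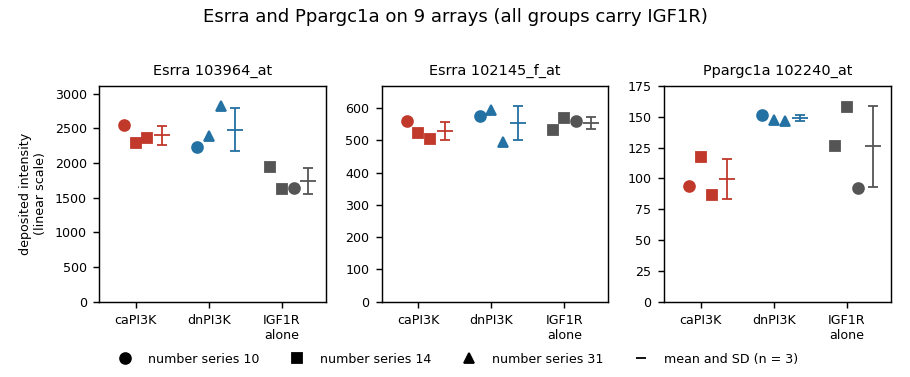
Deposited intensity (linear scale, from 0) of both Esrra probe sets and of Ppargc1a on each of the 9 arrays, by group; the marker shape gives the number series, and bars give the mean and SD (n = 3). On Esrra 103964_at the 6 arrays with a PI3K transgene lie between 2232.8 and 2827.6, above the IGF1R arrays at 1626.5 to 1948.5, while on 102145_f_at the groups overlap.

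Gata6 rose in IGF1R-dnPI3K ventricles on the probe set that could be tested, and the height of the rise differed between those mice. On 104698_at the signal was 1100.5, 1010.1 and 1161.2 in IGF1R-caPI3K mice, 1021.0, 1641.7 and 2081.4 in IGF1R-dnPI3K mice, and 900.5, 755.8 and 873.8 in IGF1R mice. All arrays with a PI3K transgene lay above the IGF1R arrays, the split that the Gapdh and cre ratios and the array medians make too. IGF1R-dnPI3K replicate 1 lay among the IGF1R-caPI3K arrays, and only replicates 2 and 3, which make up series 31, lay above them. The means were 1091 ± 76 in IGF1R-caPI3K mice, 1581 ± 533 in IGF1R-dnPI3K mice and 843 ± 77 in IGF1R mice (SD, n = 3 each).

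In log2 terms the rise of Gata6 with dominant negative PI3K was 0.85 ± 0.22 (SE, limma adjusted p = 0.0299), a ratio of 1.80 with an interval of 1.30 to 2.51. In IGF1R-caPI3K mice the ratio to IGF1R mice was 1.29 (0.931 to 1.80; adjusted p = 0.386). With active against dominant negative PI3K the difference was -0.48 ± 0.22 and did not pass (adjusted p = 0.323). It passed without IGF1R-dnPI3K replicate 1 (-0.76 ± 0.14, adjusted p = 0.0131), which leaves the series 31 arrays alone in that group. The rise in IGF1R-dnPI3K mice held in 8 of 17 settings. It was 0.62 without IGF1R-dnPI3K replicate 3 (adjusted p = 0.0693) and 0.79 without replicate 2 (0.0695), and leaving out IGF1R replicate 1, 2 or 3 gave adjusted p-values of 0.0684, 0.0916 and 0.0842. With the number series as a block it was 0.24 ± 0.21 (adjusted p = 0.697), a value that rests on replicate 1 because series 31 holds no other group. In series 10 the IGF1R-dnPI3K array was higher than the IGF1R array by 0.22 and the IGF1R-caPI3K array by 0.33.

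The other probe sets of Gata6 were too dim to be tested. On 160662_r_at the signal was 72.4 to 139.0 in IGF1R-caPI3K mice, 87.1 to 189.8 in IGF1R-dnPI3K mice and 36.0 to 112.1 in IGF1R mice, and the groups overlapped. On 93925_at it was 68.1 to 82.1 in IGF1R-caPI3K mice, 25.8 to 83.3 in IGF1R-dnPI3K mice and 100.1 to 109.8 in IGF1R mice, so here the IGF1R arrays were the highest. The lowest values of both lie under 63.9, the highest signal of a Y-linked gene.

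Of the cell types in which Gata6 is known to be expressed, smooth muscle and pericyte markers had a summed signal of 2832 to 4150 in IGF1R-dnPI3K mice and 2514 to 3095 in IGF1R mice, over 6 of 6 listed genes, of which 1 lay at or below the floor of the fit on all arrays. That of 8 of 8 endothelial markers was 9108 to 11737 in IGF1R-dnPI3K mice and 10397 to 11763 in IGF1R mice. Fibroblast markers, 7 of 7, summed to 21275 to 23731 in IGF1R-dnPI3K mice and 26639 to 29129 in IGF1R mice, without overlap. Ventricular cardiomyocyte markers, 7 of 8, summed to 137317 to 175556 in IGF1R-dnPI3K mice and 114569 to 123564 in IGF1R mice. The sums use the deposited scaling. Of the 3 ventricular markers called higher in this comparison, Myh6 and Myl2 rose by 0.39 and 0.47 on the log2 scale. After quantile normalization these became -0.07 and 0.01. Epicardium and mesothelium markers, 4 of 5, summed to 391 to 476 in IGF1R-dnPI3K mice and 283 to 442 in IGF1R mice, and 2 of them lay at or below the floor on all arrays. No other list here had such a marker apart from the smooth muscle list. Their part in the Gata6 difference was not tested.

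Mef2c gave different pictures on its 4 probe sets, and none passed in any comparison. On 97357_at the signal was 236.7, 265.8 and 227.2 in IGF1R-caPI3K mice, 255.9, 305.4 and 202.2 in IGF1R-dnPI3K mice, and 348.9, 498.3 and 339.3 in IGF1R mice. Every IGF1R array lay above all arrays with a PI3K transgene. The log2 difference from IGF1R mice was -0.68 ± 0.20 in IGF1R-caPI3K mice (SE, limma adjusted p = 0.125) and -0.63 ± 0.20 in IGF1R-dnPI3K mice (adjusted p = 0.0615), ratios of 0.623 (0.457 to 0.850) and 0.645 (0.473 to 0.879). Of 17 settings 2 passed it in IGF1R-caPI3K mice and 2 in IGF1R-dnPI3K mice. The signal ran opposite to that of Esrra 103964_at across the same arrays, which the Gapdh and cre ratios and the array medians separate too.

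On 104590_at, the Mef2c probe set with the highest mean, the signal was 461.6, 445.6 and 375.2 in IGF1R-caPI3K mice, 361.5, 616.3 and 643.5 in IGF1R-dnPI3K mice, and 364.9, 480.2 and 373.6 in IGF1R mice. IGF1R-dnPI3K replicates 2 and 3 were the highest of the 9 arrays and replicate 1 the lowest. The ratio to IGF1R mice was 1.06 (0.755 to 1.48) in IGF1R-caPI3K mice and 1.30 (0.928 to 1.82) in IGF1R-dnPI3K mice. Without IGF1R-dnPI3K replicate 1 the log2 difference in that group was 0.64 ± 0.17 and passed (adjusted p = 0.0217). The remaining probe sets had group means of 243 to 304 (104592_i_at) and 153 to 170 (104591_g_at), overlapped between all groups and had intervals for the ratio that spanned 1 in each comparison. The suffixes of these names mark an incomplete set of probes and a group of similar sequences. The Mef2c transcripts that each probe set reads were not given in the sources used here.

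**Figure D2:**
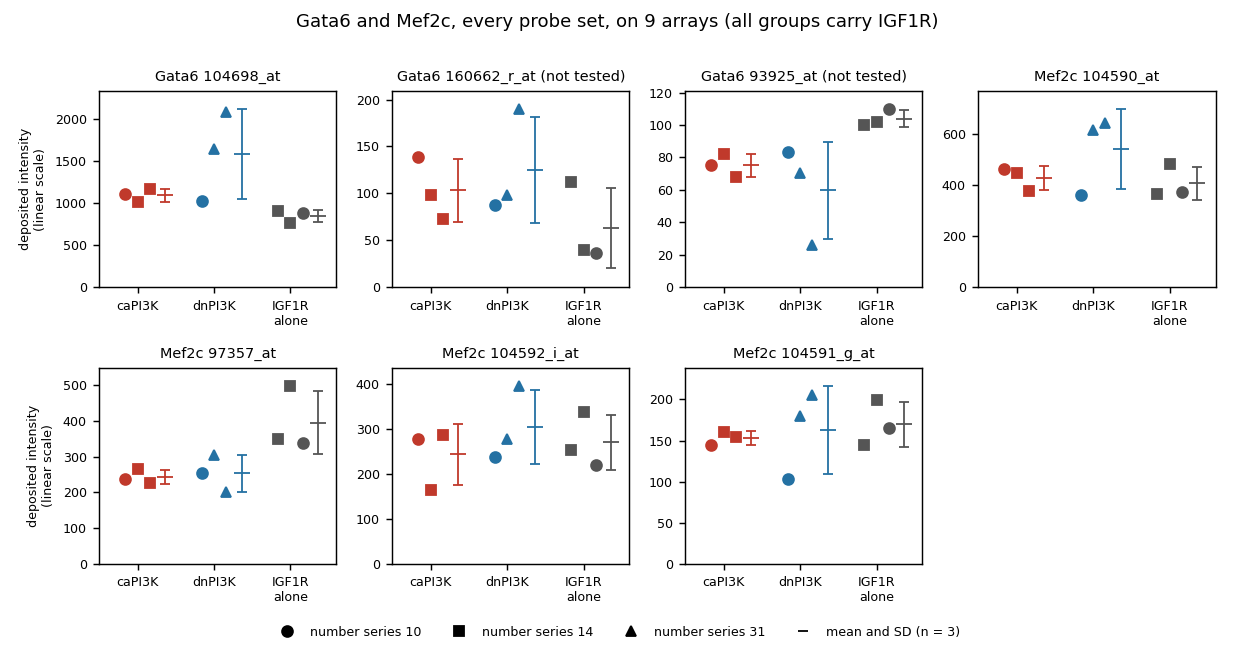
Deposited intensity (linear scale, from 0) of all 3 Gata6 and all 4 Mef2c probe sets on each array, by group, with the number series as marker shape and the mean and SD (n = 3) as bars. On Gata6 104698_at and Mef2c 104590_at the triangles of IGF1R-dnPI3K replicates 2 and 3 lie highest, and on Mef2c 97357_at the IGF1R arrays lie above the other 6.

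Mef2a, the other MEF2 gene among the members, passed in no comparison. On 93852_at the signal was 2185.4, 2224.4 and 2144.8 in IGF1R-caPI3K mice, 2811.0, 2041.7 and 2130.1 in IGF1R-dnPI3K mice, and 2475.1, 2048.3 and 2391.3 in IGF1R mice. The groups overlapped, and the highest value was that of IGF1R-dnPI3K replicate 1. The ratio to IGF1R mice was 0.951 (0.774 to 1.17) in IGF1R-caPI3K mice and 1.00 (0.816 to 1.23) in IGF1R-dnPI3K mice. The dim probe set 94133_r_at, not tested, lay between 37.9 and 105.7 on all arrays. Of the related factors, Mef2d averaged 4909 ± 228 in IGF1R-caPI3K, 5180 ± 149 in IGF1R-dnPI3K and 5345 ± 228 in IGF1R mice (SD, n = 3 each). Mef2b averaged 391 ± 11.8 in IGF1R-caPI3K, 427 ± 32 in IGF1R-dnPI3K and 450 ± 34.5 in IGF1R mice (SD, n = 3 each), and neither passed in any comparison.

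Among the factors of heart development, Gata4 passed in no comparison and varied little within groups. Its signal was 1402.5, 1454.3 and 1520.3 in IGF1R-caPI3K mice, 1357.0, 1295.2 and 1346.2 in IGF1R-dnPI3K mice, and 1375.6, 1344.1 and 1443.9 in IGF1R mice. The IGF1R-caPI3K arrays lay above the IGF1R-dnPI3K arrays without overlap, by a ratio of 1.09 with an interval of 0.943 to 1.27 (limma adjusted p = 0.544), and the IGF1R arrays lay across both. The ratio to IGF1R mice was 1.05 (0.905 to 1.22) in IGF1R-caPI3K mice and 0.961 (0.827 to 1.12) in IGF1R-dnPI3K mice. The SD of its log2 signal between arrays was 0.058 in IGF1R-caPI3K, 0.036 in IGF1R-dnPI3K and 0.053 in IGF1R mice, against medians of 0.156, 0.261 and 0.164 over all probe sets tested. Changes such as that of Gata6 in IGF1R-dnPI3K mice lie outside the interval for Gata4.

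Nkx2-5 averaged 2069 ± 289 in IGF1R-caPI3K, 2029 ± 145 in IGF1R-dnPI3K and 1911 ± 116 in IGF1R mice (SD, n = 3 each). The single arrays ran from 1762.7 to 2336.7 in IGF1R-caPI3K mice, from 1873.8 to 2161.2 in IGF1R-dnPI3K mice and from 1784.1 to 2012.7 in IGF1R mice, and all groups overlapped. Its ratio to IGF1R mice was 1.08 (0.890 to 1.30) with active PI3K and 1.06 (0.877 to 1.28) with dominant negative PI3K. Hand2 varied widely within groups, with 452.3, 263.1 and 255.8 in IGF1R-caPI3K mice, 259.9, 279.4 and 400.9 in IGF1R-dnPI3K mice, and 507.1, 229.0 and 402.0 in IGF1R mice. The IGF1R arrays alone spanned the values of the other 6. Its ratio to IGF1R mice was 0.867 in IGF1R-caPI3K mice and 0.854 in IGF1R-dnPI3K mice, with intervals of 0.537 to 1.40 and 0.529 to 1.38.

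**Figure D3:**
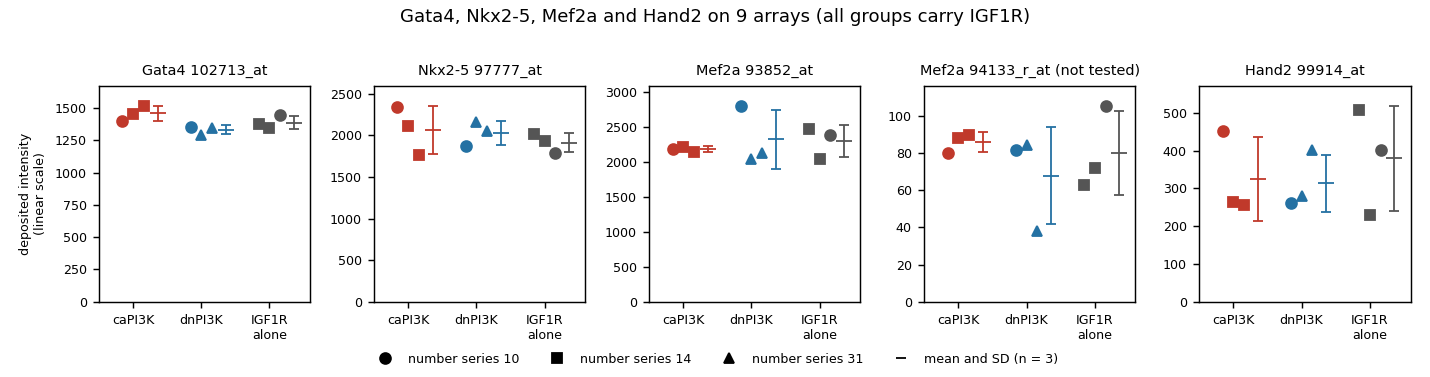
Deposited intensity (linear scale, from 0) of Gata4, Nkx2-5, both Mef2a probe sets and Hand2 on each array, by group, with the number series as marker shape and the mean and SD (n = 3) as bars. Gata4 lies between 1295.2 and 1520.3 on all 9 arrays, while Hand2 runs from 229.0 to 507.1 within the IGF1R group.

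Counted together, 0 of 12 member probe sets passed in IGF1R-caPI3K against IGF1R mice, where limma called 0.215% of all 7898 probe sets tested, and 2 members had an unadjusted p under 0.05. In IGF1R-dnPI3K against IGF1R mice 2 of 12 rose and none fell, which is 16.7%, beside 13.5% of all probe sets. In IGF1R-caPI3K against IGF1R-dnPI3K mice 0 of 12 passed, beside 1.24% of all, and 2 had an unadjusted p under 0.05. The share of members called is thus near that of all probe sets in each comparison, and the 2 calls say nothing about these genes as a group. The groups did not overlap for 3 of 12 members (25%) in each comparison with IGF1R mice, beside 32.8% and 34.4% of all probe sets with active and with dominant negative PI3K. Between IGF1R-caPI3K and IGF1R-dnPI3K mice 2 of 12 did not overlap, beside 19.5% of all. The median log2 change of the members was -0.070 in IGF1R-caPI3K against IGF1R mice, beside -0.035 over all probe sets. It was 0.045 beside -0.094 in IGF1R-dnPI3K against IGF1R mice, and -0.057 beside 0.049 in IGF1R-caPI3K against IGF1R-dnPI3K mice.

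Scaling each array to a common median moved the median change of all probe sets from -0.094 to 0.075 in IGF1R-dnPI3K against IGF1R mice, and the calls from 450 higher and 616 lower to 832 higher and 333 lower. Relative to either median the rises of Gata6 and Esrra kept their direction and their call, at 1.02 (adjusted p = 0.0254) and 0.68 (0.0203) on the rescaled arrays. In IGF1R-caPI3K against IGF1R mice the same scaling moved the median from -0.035 to 0.066.

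**Figure D4:**
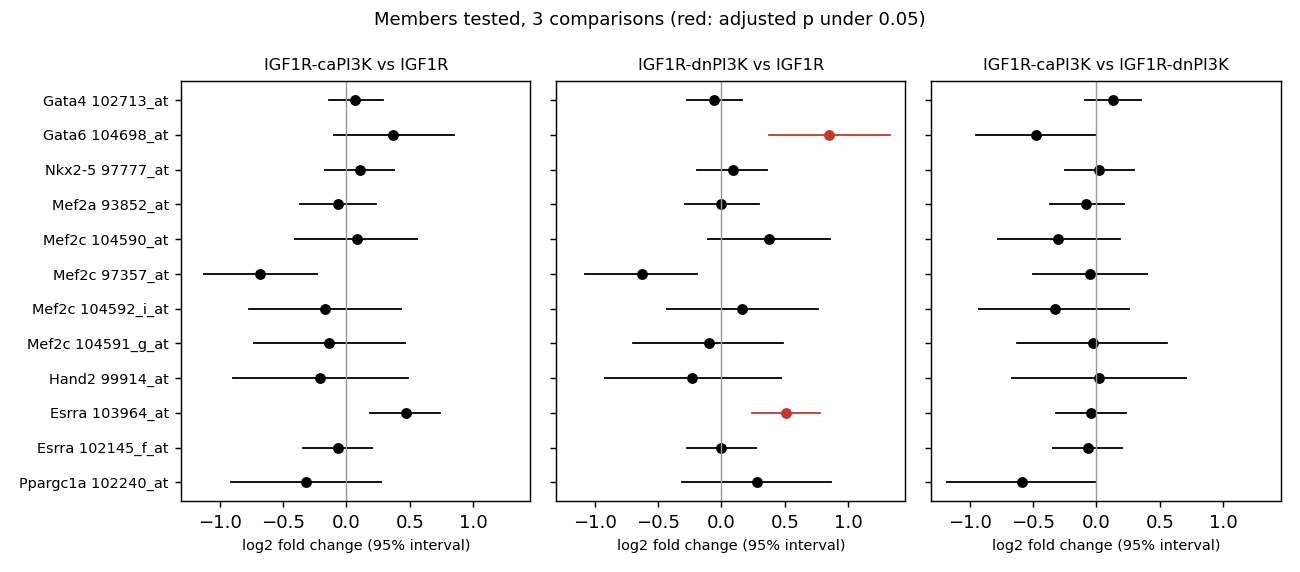
Log2 fold changes with 95% intervals of the 12 tested member probe sets, 1 panel per comparison, the first group named over the second; red marks an adjusted p under 0.05. The only red points are Gata6 104698_at and Esrra 103964_at, at 0.85 and 0.51, in IGF1R-dnPI3K against IGF1R mice.

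Genes that work beside these factors were read as 3 lists. Of 15 tested related cardiac factors, 23 related metabolic factors and 9 cofactors of MEF2 and SRF, none passed in any of the 3 comparisons. An unadjusted p under 0.05 was found for 1, 4 and 0 of them in IGF1R-caPI3K against IGF1R mice, for 3, 5 and 2 in IGF1R-dnPI3K against IGF1R mice, and for 4, 4 and 1 in IGF1R-caPI3K against IGF1R-dnPI3K mice. The homeobox factor Irx3 differed by -0.75 ± 0.17 in IGF1R-caPI3K against IGF1R-dnPI3K mice (SE, limma adjusted p = 0.0631) and by 0.55 ± 0.17 in IGF1R-dnPI3K against IGF1R mice (adjusted p = 0.0533). The kinase gene Camk2d differed by 0.59 ± 0.18 in IGF1R-caPI3K against IGF1R-dnPI3K mice (adjusted p = 0.152). Smyd1, a muscle histone methyltransferase, differed by -0.57 ± 0.18 in IGF1R-dnPI3K against IGF1R mice (adjusted p = 0.0547), and the corepressor Sin3a by 0.38 ± 0.11 (adjusted p = 0.0516). After quantile normalization 1 cardiac factor, 1 metabolic factor and 1 cofactor were called higher there and 1 cofactor lower, and at a common median 1, 3 and 1 were called higher and none lower.

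On 3 lists of known targets of the factors, 14 genes passed in IGF1R-dnPI3K against IGF1R mice, where 13.5% of all probe sets did. After quantile normalization 11 of the 14 kept their direction and Myl3, Myh6 and Slc25a4 turned, and at a common median none turned. Of 20 tested targets of cardiac factors 5 rose and 2 fell (35%), beside 2 and 7 after quantile normalization and 7 and 0 at a common median. None passed with the number series as a block, with only these groups, or without IGF1R replicate 2 or 3, and only 1 passed without IGF1R replicate 1. Nppa, the atrial natriuretic peptide gene and a target of GATA4 and NKX2-5, rose by 0.80 ± 0.17 (SE, limma adjusted p = 0.0185) and was higher under each of the 17 alternatives (0.64 to 1.00), passing in 12. The 4 atrial cardiomyocyte markers, Nppa among them, summed to 4290 to 6553 in IGF1R-dnPI3K mice and 3189 to 3941 in IGF1R mice. None lay at or below the floor on all arrays, but 1 never exceeded 63.9, the highest Y-linked signal, and only 2 passed the filter. Nppa alone averaged 5430 ± 1227 and 3077 ± 320 in these groups (SD, n = 3 each), so most of the sum is Nppa itself. The sum is thus no separate measure of atrial cells, and the part of these cells was not tested. Tnnc1 (cardiac troponin C) rose by 0.59 ± 0.15, Myl2 by 0.47 ± 0.12 and Myl3 by 0.41 ± 0.11, which became 0.12, 0.01 and -0.04 after quantile normalization and passed in 9, 9 and 7 of the 17. Acta1, the skeletal muscle actin gene, fell by 0.75 on the log2 scale, and Ryr2, the calcium release channel, by 0.55, and these passed in 5 and 11 of the 17.

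Of 29 tested targets of ERR and PGC-1 factors 4 rose and 1 fell in that comparison (17.2%, beside 13.5% of all probe sets), against 1 and 7 after quantile normalization and 9 and 1 at a common median, so the list has no settled direction although Esrra itself was higher under each scaling. None passed with the number series as a block, with only these groups, or without IGF1R replicate 1 or 3, only 1 without IGF1R replicate 2, and 11 rose and 2 fell without IGF1R-dnPI3K replicate 1. Cox6a2, the muscle form of a cytochrome oxidase subunit, rose by 0.69 ± 0.14 (SE, limma adjusted p = 0.0168), Sdhb of complex II by 0.45 ± 0.10 and Idh3a of the citric acid cycle by 0.41 ± 0.11. These became 0.21, 0.08 and 0.33 after quantile normalization, and passed in 11, 11 and 5 of the 17. Another probe set of Idh3a changed by 0 in the fit without the filter. Slc25a4, the ADP/ATP carrier of muscle mitochondria, rose by 0.33 ± 0.09, turned to -0.04 after quantile normalization and passed in 5 of the 17. Cycs, which encodes cytochrome c, changed by -1.05 ± 0.24 (adjusted p = 0.024) and stayed lower in all 17 alternatives (-1.28 to -0.70). In IGF1R-caPI3K against IGF1R mice Cycs changed by -0.92 ± 0.24 (adjusted p = 0.103). Cox6a2, Sdhb, Idh3a and Slc25a4 changed by 0.41, 0.21, 0.25 and 0.08 there. Cycs thus averaged lower in both groups with a PI3K transgene but passed only in IGF1R-dnPI3K mice. The Gapdh and cre ratios and the array medians also set both groups apart from IGF1R mice.

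Of 16 tested targets of SRF, whose own gene had no probe set here, 2 fell and none rose in IGF1R-dnPI3K against IGF1R mice, with a median of -0.39 on the log2 scale. That is 12.5%, near the 13.5% of all probe sets. With the number series as a block the median was 0.02 and none passed. The median was -0.20 with 1 lower without IGF1R-dnPI3K replicate 2, -0.27 with 1 higher and 1 lower without replicate 3, and -0.58 with 8 lower without replicate 1. Without IGF1R replicate 1, 2 or 3 there was 1 lower each time. Actb, the cytoplasmic actin gene, changed by -1.06 ± 0.16 (SE, limma adjusted p = 0.00886) and Egr2, an immediate early factor, by -1.53 ± 0.40 (adjusted p = 0.0333). The call of Actb held in 16 of 17 settings and that of Egr2 in 7 of 16, with changes of Egr2 from -1.87 to -0.60. The Egr2 signal was low in IGF1R-dnPI3K mice, at 82.5 ± 36.9 (SD, n = 3), beside 63.9 for the highest Y-linked signal. In IGF1R-caPI3K against IGF1R mice Actb changed by -0.82 ± 0.16 (adjusted p = 0.0562) and Egr2 by 0.09 ± 0.40 (adjusted p = 0.931). Actb thus averaged lower in both groups with a PI3K transgene but passed only in IGF1R-dnPI3K mice. The Gapdh and cre ratios and the array medians also set both groups apart from IGF1R mice. In IGF1R-dnPI3K against IGF1R mice quantile normalization gave 3 lower, and a common median 1 higher and 2 lower. The summed fibroblast markers given above, and those of macrophages (5 of 5, at 1338 to 2100 in IGF1R-dnPI3K mice and 2678 to 2997 in IGF1R mice, none at or below the floor on all arrays), were lower in the same mice, and their part was not tested.

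In IGF1R-caPI3K against IGF1R mice 2 of 20 cardiac targets fell. Ryr2 fell by 0.70 and Ckm, the muscle creatine kinase, by 0.59 on the log2 scale (limma adjusted p = 0.0464 and 0.0482). Another probe set of Ckm went the other way and was higher by 0.79 in the fit without the filter. The calls of Ryr2 and Ckm held in 7 and 5 of 17 settings, and the list had none in 10. With only these groups 4 cardiac targets rose and 3 fell, and 1 ERR and PGC-1 target rose and 6 fell; without IGF1R-dnPI3K replicate 3 these were 3 and 2, and 1 and 5. None of the 16 SRF targets or 29 ERR and PGC-1 targets passed there, where 3 and 6 had an unadjusted p under 0.05. In IGF1R-caPI3K against IGF1R-dnPI3K mice Acta1 was higher by 1.00 ± 0.19 (adjusted p = 0.0367), a call that held in 5 of 17 settings. Ucp3, a mitochondrial carrier of muscle known as a PPAR target, was lower with active PI3K, at 205 ± 66.3 in IGF1R-caPI3K mice, against 595 ± 125 in IGF1R-dnPI3K mice (SD, n = 3 each), a difference of -1.56 ± 0.32 (adjusted p = 0.0427) that passed in 6 of 16 settings. No other target on the lists passed in this comparison. Skeletal muscle markers (5 of 5, Ckm among them) summed to 18910 to 20606 in IGF1R-caPI3K mice, 5601 to 7757 in IGF1R-dnPI3K mice and 14303 to 15420 in IGF1R mice. None lay at or below the floor on all arrays, but 1 never exceeded 63.9, the highest Y-linked signal. The part of these markers in the differences of Acta1, Ckm and Ucp3 was not tested.

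**Figure D5:**
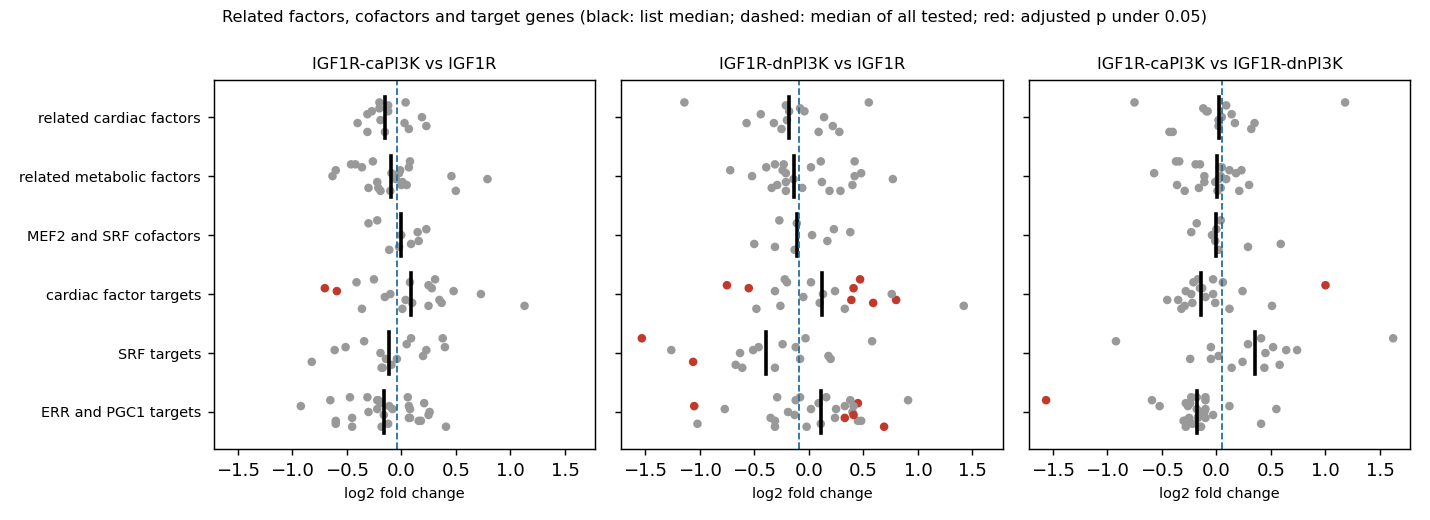
Log2 fold changes of single genes on the 6 lists, 1 panel per comparison, the first group named over the second, with 1 point per gene spread vertically for visibility, the list median as a black bar and the median of all tested probe sets as a dashed line; red marks an adjusted p under 0.05. The lists of related factors and cofactors hold no red point, and the target lists hold 14 of theirs in IGF1R-dnPI3K against IGF1R mice, where 13.5% of all probe sets passed.

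Across the 9 arrays the tested genes whose log2 signal followed Gata6 104698_at most closely were Pnpla2, the adipose triglyceride lipase gene, and Slc4a3, an anion exchanger gene, at Pearson correlations of 0.991 and 0.986. For Esrra 103964_at they were Dad1 and Epn2, at 0.974 and 0.971. These describe likeness over 9 arrays that share the groups, the number series and the array differences given above.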

How the data were processed

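The authors deposited linear intensity values, 1 for each probe set on each array. The algorithm and any detection calls were not given in the sources used here. The deposited values of each array have a common trimmed mean of 500 (2% cut at each end), so they had been scaled. Array medians ran from 161 to 197. Arrays have no read depth, and their number, 3 per group, limits the precision.

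Groups came from the sample titles, and replicate numbers follow the order of deposit and pair nothing. Of 12488 probe sets 66 were controls; 10833 of the others had 1 gene symbol, 396 several and 1193 none. Identifier and symbol of all 8 member genes measured matched the RefSeq gene table. Controls were left out. Values under 32.4, the 20th percentile, were set to it before log2. The filter asked that 3 or more arrays exceed their own 40th percentile, which 7898 probe sets met. All 9 arrays entered 1 model in limma 3.58.1 (R 4.3.3), lmFit and eBayes with a variance trend. The 3 contrasts were adjusted by Benjamini-Hochberg over these 7898 probe sets, and 0.05 was the threshold. Intervals of 95% used the moderated degrees of freedom. The model was tested on simulated data.

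Every member probe set was given. Each gene of 6 lists was read from its brightest probe set, and named genes were up to 4 per direction by size among those that passed, or those with the lowest p. Members, lists and rules were chosen with earlier results of these data known. Alternatives were 2 other scalings, another treatment of low values, 2 other filters, no variance trend, the number series as a block, only the compared groups, and each array left out, 17 settings in all.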

Additional observations from a re-analysis of the deposited data

How the results depend on the processing

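Of 36 log2 changes of members under up to 17 settings each, 42 of 603 values changed sign, 0 of them where either value passed; 15 calls were lost and 8 gained. The calls of Gata6 and Esrra in IGF1R-dnPI3K against IGF1R mice (2) became 0 without the filter, without the variance trend, with the number series as a replicate block and with only these groups, and 0 to 3 with an array left out. With active PI3K against IGF1R, 0 became 2 with only these groups and 0 to 2 with an array left out, and active against dominant negative PI3K gave 0 to 1. The block moved the estimates themselves, to 0.24 for Gata6 and 0.36 for Esrra; the cause was not tested. Title numbers do not pair samples, and the block sets IGF1R-dnPI3K replicate 1 alone against the others.

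Over all probe sets, active PI3K against IGF1R gave 17, and 78 (quantile normalization), 3 (common median), 0 (no filter), 48 (above the array median throughout), 7 (no trend), 1 (replicate block), 699 (only these groups) and 0 to 549 with an array left out. Dominant negative PI3K against IGF1R gave 1066, and 387 (no filter), 657 (no trend), 5 (block), 132 (only these groups) and 77 to 1856 with an array left out. Active against dominant negative gave 98, and 36, 45, 8, 13 and 10 to 537 in the same order.

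Signs changed as follows, none past the threshold. At a common median, active PI3K against IGF1R gave 0.03 for Esrra 102145_f_at and 0.03 for Mef2a; dominant negative against IGF1R 0.17 for Esrra 102145_f_at, 0.11 for Gata4 and 0.07 for Mef2c 104591_g_at; active against dominant negative -0.05 for Hand2 and -0.05 for Nkx2-5. Quantile normalization gave, for dominant negative against IGF1R, 0.12 for Esrra 102145_f_at, -0.04 for Mef2a and 0.06 for Mef2c 104591_g_at, and -0.03 for Hand2 in active against dominant negative. The block gave, for dominant negative against IGF1R, 0.01 for Esrra 102145_f_at, -0.16 for Mef2c 104590_at, -0.13 for 104592_i_at and -0.07 for Nkx2-5. For active against dominant negative it gave 0.11 for Esrra 103964_at, 0.13 for Gata6, 0.24 for Mef2c 104590_at and 0.51 for 104591_g_at.

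With an array left out, active PI3K against IGF1R ran from -0.53 to 0.04 for Hand2 and -0.31 to 0.09 for Mef2c 104592_i_at. Dominant negative against IGF1R ran from -0.05 to 0.08 for Esrra 102145_f_at, -0.55 to 0.02 for Hand2, -0.14 to 0.09 for Mef2a, -0.30 to 0.19 for Mef2c 104591_g_at and -0.04 to 0.34 for 104592_i_at. Active against dominant negative ran from -0.12 to 0.05 for Esrra 103964_at, -0.25 to 0.21 for Hand2, -0.16 to 0.07 for Mef2a, -0.33 to 0.16 for Mef2c 104591_g_at, -0.20 to 0.09 for 97357_at and -0.07 to 0.13 for Nkx2-5.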
